A study of Mus musculus with 10 samples.

Results

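Tubulin glutamylation is set by ligases of the TTLL family and by carboxypeptidases of the CCP family, and 10 such genes of mouse oocytes are described here: Agtpbp1, Agbl5, Ttll1, Ttll3, Ttll4, Ttll5, Ttll7, Ttll10, Ttll11 and Ttll12. They were taken by gene symbol from a table of 18493 genes, and 9 of the 10 had enough counts to be among the 12315 genes tested. The set was chosen by measured values of these same libraries, because Agtpbp1 was low outside the young libraries and Ttll10 was high in the aged libraries and low again with spermidine. Agtpbp1 and Ttll10 are therefore given as a description, with no test. All 3 comparisons bear on that choice, so the counts below leave out Agtpbp1 and Ttll10, except where stated, and support nothing about the set.

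The study measured RNA in oocytes of young mice, of aged mice, and of a group named for spermidine and labelled as a rescue, and its stated purpose was to learn how spermidine acts on aged oocytes. The young group (3 libraries) is labelled a control, the aged group (3 libraries) a treatment, and the spermidine group has 4 libraries. Per the labels all cells are germ cells from the ovary, and the messenger RNA was primed by its poly(A) tail and amplified as full-length cDNA (SMART-seq2). The ages, the strain, the spermidine dose, the number of oocytes in a library and whether the libraries came from separate animals are not stated in the sources used here. P-values therefore measure only the spread between these libraries, which may be technical. Fewer oocytes holding a transcript and less of it in each oocyte cannot be told apart in bulk RNA.

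Glutamate side chains are added to the tails of alpha- and beta-tubulin by TTLL enzymes. Some of these start a chain, others lengthen it, and a related subgroup adds glycine in place of glutamate. CCP enzymes trim the chains again. The length of the chains tunes motors, severing enzymes and the stability of microtubules, best known from cilia, sperm tails and neurons. In an oocyte the microtubules form the meiotic spindle. The set is broader than glutamylation: Ttll3 starts and Ttll10 lengthens glycine chains, and Ttll12 is not an established glutamate ligase.

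The stretches of DNA just upstream of 4 members are shown because these 4 differed most plainly between groups among the members with an entry: Agtpbp1, low outside the young libraries, and Ttll10, Agbl5 and Ttll5, each highest in the aged libraries. Each is the 250 bases before the 5′-most RefSeq start of the gene, on the coding strand, in GRCm38.p6: chr13:59557348-59557597 on the minus strand for Agtpbp1, chr4:156050818-156051067 on the minus strand for Ttll10, chr5:30888602-30888851 on the plus strand for Agbl5 and chr12:85824670-85824919 on the plus strand for Ttll5. Capitals mark the GC box GGGCGG or its complement CCGCCC.
Agtpbp1: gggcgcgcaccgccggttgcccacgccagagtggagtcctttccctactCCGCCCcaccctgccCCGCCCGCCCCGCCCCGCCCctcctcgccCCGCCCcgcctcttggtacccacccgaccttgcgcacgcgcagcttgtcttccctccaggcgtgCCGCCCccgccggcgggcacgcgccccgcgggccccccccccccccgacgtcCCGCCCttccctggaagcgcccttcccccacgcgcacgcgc
Ttll10: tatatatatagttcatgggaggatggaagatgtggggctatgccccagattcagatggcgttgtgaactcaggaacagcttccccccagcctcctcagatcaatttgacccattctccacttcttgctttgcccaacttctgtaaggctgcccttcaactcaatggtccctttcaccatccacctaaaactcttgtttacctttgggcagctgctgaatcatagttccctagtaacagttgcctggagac
Agbl5: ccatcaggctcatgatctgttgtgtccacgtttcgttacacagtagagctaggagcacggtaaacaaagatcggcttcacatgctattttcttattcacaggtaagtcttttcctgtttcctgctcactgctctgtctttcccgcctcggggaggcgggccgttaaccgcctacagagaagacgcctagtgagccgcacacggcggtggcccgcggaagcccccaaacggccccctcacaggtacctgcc
Ttll5: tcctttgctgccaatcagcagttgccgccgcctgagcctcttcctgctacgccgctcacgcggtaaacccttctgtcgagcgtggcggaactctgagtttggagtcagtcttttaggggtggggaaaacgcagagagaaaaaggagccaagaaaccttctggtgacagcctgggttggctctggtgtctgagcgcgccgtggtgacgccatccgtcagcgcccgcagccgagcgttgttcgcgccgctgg

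The Agtpbp1 and Ttll10 windows lie outside the quartiles of base composition, on opposite sides. The Agtpbp1 window has 80.0% G or C and 34 CpG dinucleotides, above the upper quartiles of 66.4% and 22 over 12614 windows of tested genes. It holds 8 GC boxes, counting overlapping matches, and 53.6% of all windows hold at least 1. The Ttll10 window has 48.0% G or C and 1 CpG, below the lower quartiles of 51.6% and 7, and holds no GC box. It holds 3 matches to the E-box CANNTG, which 59.4% of all windows contain. Agbl5 (56.4%, 16 CpG) and Ttll5 (61.2%, 22 CpG) lie within the quartiles, and neither window holds a GC box. Each holds 1 match to CANNTG. For Agbl5 the lack of a GC box applies to the 5′-most start only. The windows of its starts 2 and 3 hold 1 GC box each. That of its start 4 holds 2, with 73.6% G or C, above the upper quartile. CCAAT (36.2% of all windows) occurs once in the Ttll5 window. TATAAA (7.26% of all windows) and TAATTG (5.05%) occur in none of the 4 windows shown. All motifs were searched on both strands. A match is a run of letters and not a shown binding site, and Agtpbp1 has 3 and Agbl5 4 listed starts, of which the start used in these oocytes was not measured. RefSeq's promoter table held 8 of the 10 members, with no entry for Ttll1 and Ttll11.

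Levels below are CPM, the usual gene count per fixed total of library counts, after scaling each library by the trimmed mean of M-values (TMM). A gene was called at an adjusted p under 0.05 in the quasi-likelihood test of edgeR, adjusted by Benjamini-Hochberg over all 12315 genes, and a log2 fold change is followed by its standard error (SE). The 10 libraries held 24222185 to 28730790 counts each. All 12 oocyte markers listed for the check were present, with summed levels of 33912 to 38591 CPM in young, 34949 to 41643 in aged and 26639 to 42636 in spermidine libraries. For aged minus young 3 of them were called (2 higher, 1 lower, log2 −0.56 to 1.57), where 17.8% of all genes were called. The 12 markers of granulosa and cumulus cells summed to 19.4 to 23.2, 20.2 to 23.9 and 21.5 to 27.3 CPM, with Amh at 0 in 9 libraries, Cyp19a1 at 8.81 to 16.7 CPM and Nr5a2 at 3.63 to 8.15 CPM. Of the 5 tested, 2 were called higher for aged minus young, where 9.71% of all genes were called higher. Their median log2 difference was 0.61 (up to 1.79), against 0.10 over all genes. For spermidine minus young 1 was called higher, where 3.44% of all genes were, and the part of these markers in the results was not tested. Markers of ciliated epithelium, cells rich in these enzymes, summed to 17.5 to 23.1, 18.0 to 21.4 and 18.7 to 26.3 CPM over the 11 of 12 found. Of the 6 tested, 1 was called lower for spermidine minus aged (log2 down to −1.46), where 4.86% of all genes were called. For aged minus young and spermidine minus young 0 were called, where 17.8% and 5.36% of all genes were, and the part of these markers was not tested. Haemoglobin transcripts reached 19.9 CPM in young 1, 13.6 in young 3 and 9.64 in aged 1 against at most 0.145 elsewhere. The 10 blood markers that include them, with Ptprc up to 4.15 CPM, summed to 26.7, 15.6 and 11.8 CPM there and to at most 1.34 elsewhere. Of 6 tested, 0 were called for spermidine minus young, where 5.36% of all genes were. In that comparison 5 were below 0.05 by unadjusted p (median log2 −5.96), and the part of blood transcripts in the results was not tested. Aged 1 stood apart in another way: its deviation from the mean of all libraries correlated with transcript length (r = 0.464 over 11995 genes). In the other 9 libraries r was −0.250 to 0.172, the highest of these in spermidine 1. Calls of members that change when aged 1 is left out are given with and without it.

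**Figure D1:**
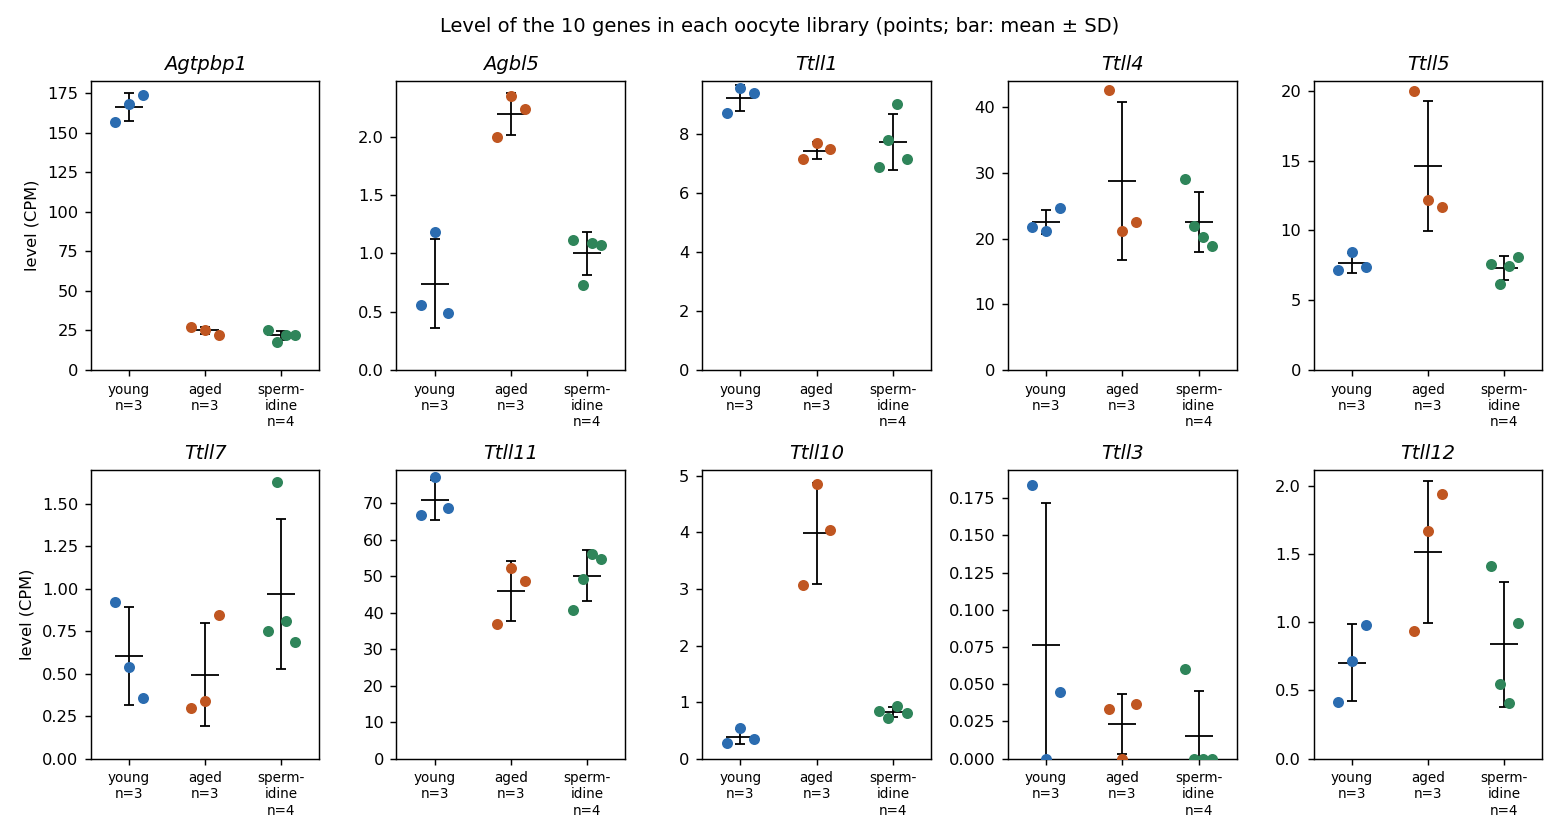
Level of each of the 10 members in every library, in CPM after TMM scaling on linear axes that differ by gene, with 1 point per library (3 young, 3 aged, 4 spermidine) and bars of the mean ± SD. Agtpbp1 sits at 157 to 174 CPM in young and at 17.9 to 27.3 CPM in the other 7 libraries, and Ttll10 at 3.07 to 4.85 CPM in aged against at most 0.931 CPM elsewhere.

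Among the enzymes that remove glutamate, the most abundant in young oocytes was Agtpbp1, and it was much lower in both other groups. Agtpbp1 (Gene ID 67269) encodes CCP1, which shortens long glutamate chains and whose loss causes the Purkinje cell degeneration of the pcd mouse. Its level was 157, 168 and 174 CPM in the young libraries. It was 27.3, 25.2 and 22.4 CPM in the aged libraries. It was 25.3, 17.9, 22.3 and 21.9 CPM in the spermidine libraries. Every young library thus lay far above every other library, and the aged and spermidine ranges overlapped. The means were 166 ± 8.95 (SD, n = 3), 25.0 ± 2.43 (n = 3) and 21.8 ± 3.03 CPM (n = 4), which is 6.67-fold lower in aged and 7.62-fold lower in spermidine than in young oocytes. The log2 differences were −2.74 (SE 0.16) for aged minus young, −2.93 (SE 0.14) for spermidine minus young and −0.19 (SE 0.14) for spermidine minus aged. These rest on 12011, 2093 and 2455 counts summed over the young, aged and spermidine libraries, so counting error is small.

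Of the neighbours of Agtpbp1 on the chromosome, the pair with the most counts had means no lower in aged than in young libraries. Naa35, which encodes a subunit of an N-terminal acetyltransferase, was at 43.3 ± 2.00, 48.7 ± 10.2 and 44.2 ± 4.84 CPM (log2 0.17 for aged minus young, adjusted p = 0.483). Golm1, which encodes a Golgi membrane protein, rose from 14.1 in young to 22.3 in aged libraries (log2 0.66, SE 0.16, adjusted p = 0.0177) and was at 25.1 CPM with spermidine (log2 0.83 against young, adjusted p = 0.00810). The aged call of Golm1 was lost without young 1, young 3 or aged 2 (adjusted p up to 0.0888), and the spermidine call without young 1 or young 3 (up to 0.0686). Ntrk2 and Slc28a3, further neighbours, were scarce, at 0.630 and 1.41 CPM in young and 0.328 and 1.60 CPM in aged libraries.

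Agbl5 (Gene ID 231093) was scarce and highest in the aged oocytes. It encodes CCP5, which removes the last glutamate, the one attached at the branch point. Its level was 0.553, 1.18 and 0.489 CPM in young, 2.00, 2.35 and 2.24 CPM in aged, and 1.11, 0.725, 1.09 and 1.07 CPM in spermidine libraries. All 3 aged libraries lay above the other 7, and young and spermidine overlapped. Agbl5 rose 2.96-fold from young (0.742 ± 0.385) to aged (2.20 ± 0.178), a log2 change of 1.53 (SE 0.33, adjusted p = 0.00975). It was 2.19-fold lower with spermidine (1.00 ± 0.185) than in aged oocytes, a log2 change of −1.13 (SE 0.29, adjusted p = 0.0472). That second call was lost under 13 of 18 alternatives, with adjusted p from 0.00788 to 0.142 (0.0533 without aged 1), and the first without young 1 (adjusted p = 0.0528). Spermidine minus young was 0.40 (SE 0.32, adjusted p = 0.519). Only 56, 183 and 112 counts lie behind the 3 groups, and Agbl5 overlaps Ost4 on the chromosome, so without a stated use of strand some reads could belong to either gene. Ost4 itself was at 22.4, 18.9 and 24.5 CPM. Of the genes next to Agbl5, edgeR called Tmem214 higher for aged minus young (log2 0.92, SE 0.25, adjusted p = 0.0250). It called Mapre3 lower for spermidine minus aged (log2 −1.31, SE 0.28, adjusted p = 0.0250). Preb was not called in any comparison. Whether these changes are linked to that of Agbl5 was not tested.

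As a sum per length the 6 deglutamylase genes (Agtpbp1 and Agbl1 to Agbl5) gave 24.0 ± 1.13 CPM per kb of transcript in young, 6.76 ± 0.293 in aged and 5.29 ± 0.394 in spermidine libraries. Agtpbp1 made up 84.9% ± 0.583 of that sum in young oocytes, 45.1% ± 2.56 in aged and 50.4% ± 5.14 with spermidine (SD, n = 3, 3 and 4). Agbl2, which encodes the related deglutamylase CCP2, held 8.41% ± 0.403, 27.4% ± 2.00 and 14.4% ± 1.33. Agbl3 (CCP3) held 5.33%, 17.4% ± 3.57 and 27.0% ± 4.73. These are shares of a sum that was lower outside the young libraries, and neither gene had a higher mean level in aged libraries. Agbl3 averaged 4.75, 4.38 and 5.32 CPM in young, aged and spermidine libraries, and edgeR called it in no comparison. Agbl2 averaged 9.10 CPM in young and 8.37 CPM in aged libraries. Agbl5 held 0.864% ± 0.439, 9.10% ± 0.943 and 5.27% ± 0.801. The sum follows the choice of Agtpbp1 and carries no test.

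**Figure D2:**
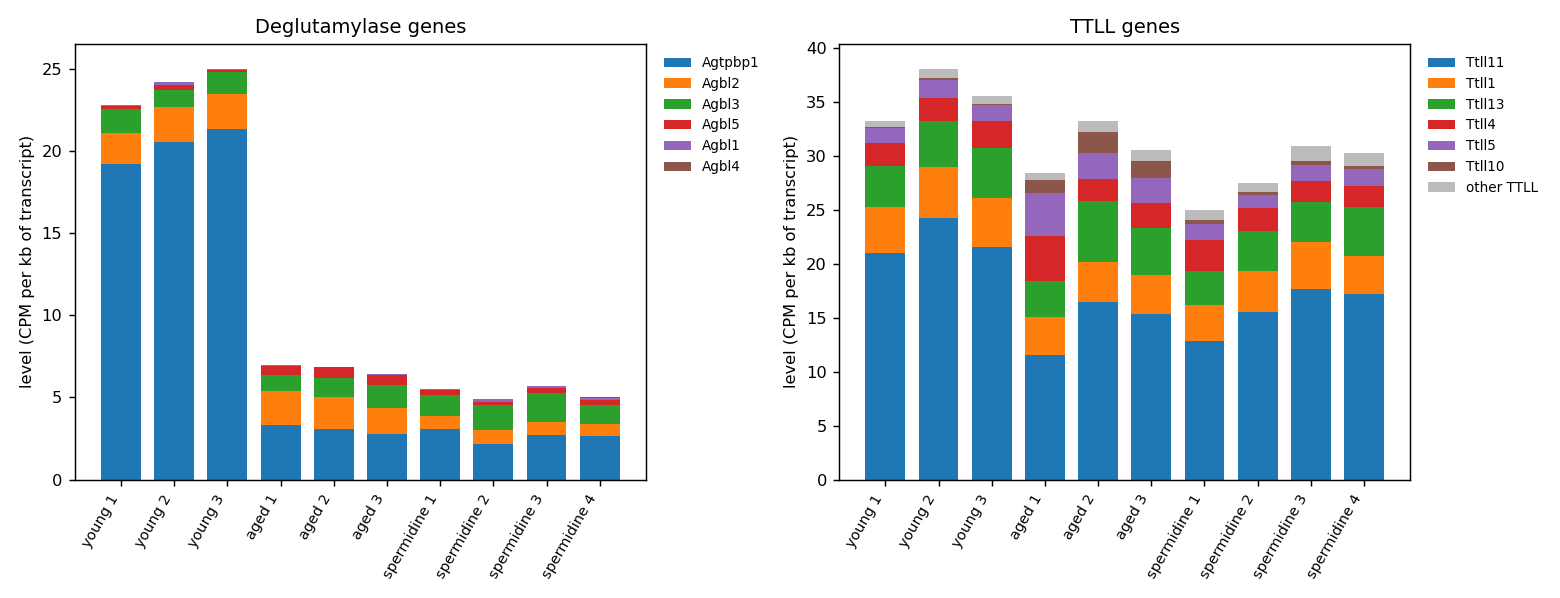
Summed level per kb of transcript (CPM per kb) of the 6 deglutamylase genes and of the TTLL genes, as 1 stacked bar per library, coloured by gene. Agtpbp1 fills most of the young deglutamylase bars, whose sum averages 24.0 against 6.76 in aged and 5.29 in spermidine libraries, and Ttll11 is the largest block of every TTLL bar (mean sums of 35.7, 30.7 and 28.4).

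Of the enzymes that start glutamate chains, Ttll5 was higher in the aged oocytes than in the other 2 groups, while Ttll4 and Ttll7 did not pass the test in any comparison. Ttll5 (Gene ID 320244) was at 7.14, 8.44 and 7.38 CPM in young, 20.0, 12.2 and 11.7 CPM in aged, and 7.61, 6.13, 7.41 and 8.09 CPM in spermidine libraries. The aged libraries did not overlap either other group, and young and spermidine libraries overlapped. Ttll5 rose from 7.65 ± 0.689 to 14.7 ± 4.64 CPM, a log2 change of 0.94 (SE 0.22, adjusted p = 0.0144). With spermidine it was at 7.31 ± 0.839 CPM and lower than in aged oocytes, at −1.01 (SE 0.20, adjusted p = 0.0219). Against young it differed by −0.07 (SE 0.21, adjusted p = 0.883). Without aged 1, the library with the length trend, the first 2 differences were 0.60 (adjusted p = 0.0384) and −0.71 (adjusted p = 0.0344). The aged call was lost without young 1 (adjusted p = 0.0726) or young 3 (0.0667), and the spermidine call under 4 of 19 alternatives. Ttll5 overlaps Erg28 on the chromosome, which was at 70.8, 59.6 and 54.9 CPM.

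Ttll4 (Gene ID 67534), which acts mainly on beta-tubulin, was at 21.7, 21.2 and 24.7 CPM in young, 42.7, 21.1 and 22.5 CPM in aged, and 29.1, 21.9, 20.2 and 18.9 CPM in spermidine libraries. Aged 1 stood highest and spermidine 1 next, and all 3 groups overlapped. The aged minus young difference was 0.35 (SE 0.26, adjusted p = 0.346) and −0.09 without aged 1. Spermidine minus aged was −0.35 (SE 0.24, adjusted p = 0.393), and 0.05 without aged 1. Ttll7 (Gene ID 70892), another initiating enzyme with a preference for beta-tubulin, was scarce. It was at 0.921, 0.539 and 0.356 CPM in young, 0.300, 0.341 and 0.844 in aged, and 0.752, 1.63, 0.810 and 0.690 in spermidine libraries. The groups overlapped throughout, with log2 differences of −0.28 (SE 0.52), 0.97 (SE 0.47) and 0.69 (SE 0.47) for aged minus young, spermidine minus aged and spermidine minus young and adjusted p of 0.721, 0.228 and 0.446.

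Chain-lengthening enzymes include Ttll11, the most abundant TTLL gene per length in every group. Ttll11 (Gene ID 74410) was at 66.9, 77.2 and 68.6 CPM in young, 36.8, 52.3 and 48.8 CPM in aged, and 40.8, 49.2, 56.0 and 54.8 CPM in spermidine libraries. All young libraries lay above the other 7, and aged and spermidine overlapped. Ttll11 fell from 70.9 ± 5.52 to 46.0 ± 8.09 CPM between young and aged, by 0.63 on the log2 scale (SE 0.17, adjusted p = 0.0265). The call was lost without any 1 of the 3 young libraries or without aged 3, with adjusted p up to 0.0774. With spermidine it was at 50.2 ± 6.93 CPM, a difference of 0.13 from aged (SE 0.16, adjusted p = 0.657) and of −0.50 from young (SE 0.16, adjusted p = 0.0939). That last difference passed the test without aged 1 (−0.54, adjusted p = 0.0327) and by DESeq2 (−0.54, adjusted p = 0.0258). Of the genes next to Ttll11, edgeR called Ndufa8 lower for aged minus young (log2 −0.84, SE 0.14, adjusted p = 0.00315). The scarce Dab2ip was called higher there (log2 1.35, SE 0.42, adjusted p = 0.0428). Ggta1 and Morn5 were not called. Whether these changes are linked to that of Ttll11 was not tested. Ttll1 (Gene ID 319953), the catalytic subunit of a multi-subunit polyglutamylase, was at 8.71, 9.55 and 9.38 CPM in young, 7.14, 7.69 and 7.49 in aged, and 6.89, 7.80, 9.03 and 7.17 in spermidine libraries. The young libraries lay above the aged ones without overlap, yet the difference of −0.31 (SE 0.16) did not pass the test (adjusted p = 0.201). Spermidine differed from aged by 0.05 (SE 0.15, adjusted p = 0.863) and from young by −0.26 (SE 0.15, adjusted p = 0.384).

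Of the 2 glycine ligases, Ttll10 was about an order of magnitude higher in aged than in young oocytes and intermediate with spermidine, and Ttll3 was hardly detected. Ttll10 (Gene ID 330010) was at 0.276, 0.539 and 0.356 CPM in young libraries. It was at 3.07, 4.85 and 4.04 CPM in aged libraries. It was at 0.842, 0.725, 0.931 and 0.805 CPM in spermidine libraries. No 2 groups overlapped: aged was highest, spermidine intermediate and young lowest. The means of 0.390 ± 0.134, 3.99 ± 0.892 and 0.826 ± 0.0856 CPM put aged 10.2-fold above young, spermidine 4.83-fold below aged, and spermidine 2.12-fold above young. The log2 differences were 3.31 (SE 0.30), −2.26 (SE 0.24) and 1.05 (SE 0.30). They rest on 29, 330 and 92 counts summed over the 3 young, 3 aged and 4 spermidine libraries.

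Ttll3 (Gene ID 101100), which starts glycine chains, had 5 counts over all young libraries, 2 over all aged and 2 over all spermidine libraries. Its level was 0.184, 0 and 0.0445 CPM in young, 0.0334, 0 and 0.0367 CPM in aged, and 0.0602, 0, 0 and 0 CPM in spermidine libraries. Only young 1 lay above the level of 3 counts, which is the limit that a count of 0 allows and stood at 0.0902 to 0.138 CPM by library. Ttll3 was not tested and no fold is given.

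Ttll12 (Gene ID 223723), the outlying member of the TTLL family, was at 0.415, 0.718 and 0.978 CPM in young, 0.934, 1.67 and 1.94 CPM in aged, and 1.41, 0.544, 0.405 and 0.997 CPM in spermidine libraries. All groups overlapped. The differences of 1.09 (SE 0.47, adjusted p = 0.122), −0.82 (SE 0.42, adjusted p = 0.252) and 0.27 (SE 0.46, adjusted p = 0.783), in the order aged minus young, spermidine minus aged and spermidine minus young, did not pass the test. Without aged 1 and spermidine 1 together the first of these passed (adjusted p = 0.0382).

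**Figure D3:**
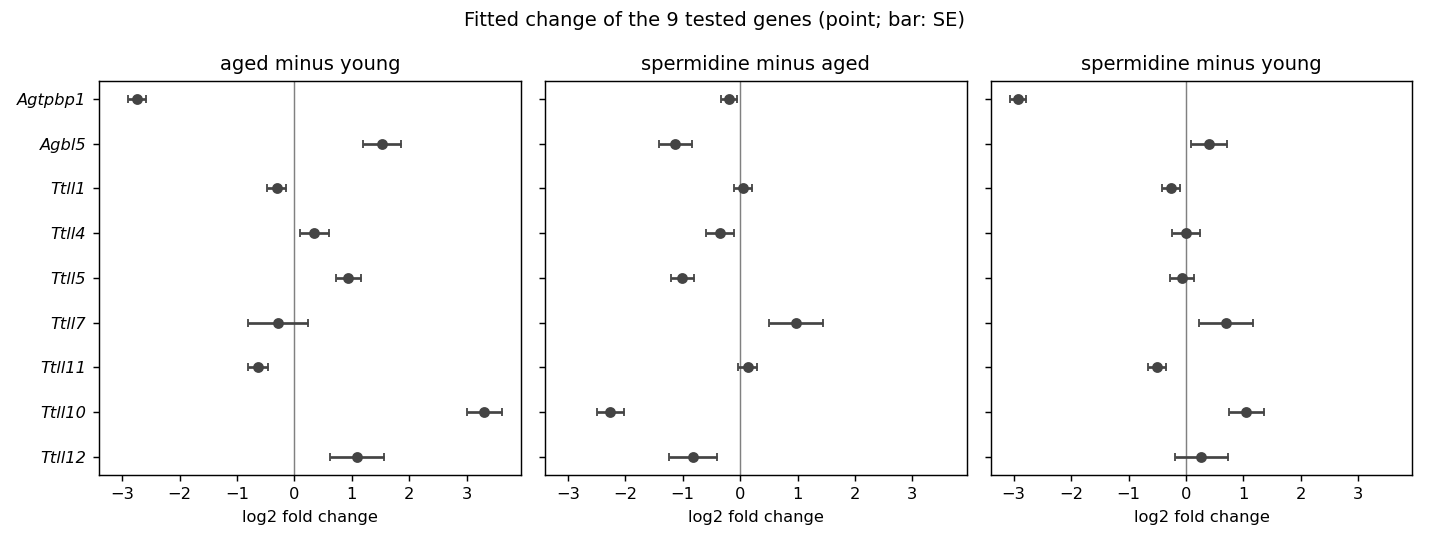
Log2 fold change of the 9 tested members in the 3 comparisons, each with a bar of ± 1 SE from edgeR's quasi-likelihood fit. Ttll10 (3.31) and Agtpbp1 (−2.74) lie farthest from 0 for aged minus young, and Ttll10, Agbl5 and Ttll5 are the 3 lowest for spermidine minus aged.

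Of the 7 tested members other than Agtpbp1 and Ttll10, 3 were called between young and aged oocytes, where 17.8% of all tested genes were called. Agbl5 and Ttll5 were higher (9.71% of all genes) and Ttll11 lower (8.06% of all genes), and DESeq2 also called 3. All 3 calls were lost without young 1, and those of Ttll5 and Ttll11 without young 3. The groups did not overlap for 4 of the 7, 2 higher and 2 lower, against 40.0% of all genes (21.1% higher, 18.8% lower). The median difference of the 7 was 0.35 and that of all genes 0.10.

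Between aged and spermidine oocytes 2 of these 7 members were called, Agbl5 and Ttll5, both lower with spermidine. Over all genes 4.86% were called, 2.42% higher and 2.44% lower. Both calls were lost without spermidine 2 or without spermidine 3. Agbl5 and Ttll5 were also the members of the 7 whose groups did not overlap, as for 19.9% of all genes (11.4% higher, 8.49% lower). Between young and spermidine oocytes edgeR called none of the 7, against 5.36% of all genes (3.44% higher, 1.92% lower), while 1 was below 0.05 by unadjusted p and DESeq2 called 1. The groups did not overlap there for Ttll11 alone, which was lower, and 21.0% of all genes were so placed (12.1% higher, 8.92% lower). The median difference of the 7 was −0.35 for spermidine minus aged and 0.00 for spermidine minus young, and that of all genes −0.03 and 0.04. These shares are set side by side only, since the choice of members used the same comparisons. The comparisons also share libraries: a high value in aged oocytes enters aged minus young and spermidine minus aged with opposite signs.

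The authors' deposited table of comparisons gives the same directions for the called members. It rests on these same libraries, so the shared directions are not independent evidence. In the authors' deposited table Agbl5 has a log2 ratio of 1.51 for aged over young (q = 0.00864) and −1.15 for spermidine over aged (q = 0.00785). For Ttll5 the authors' deposited table has 0.90 (q = 0.00975) and −1.02 (q = 0.00298). For Ttll11 the authors' deposited table has −0.66 for aged over young (q = 0.00693). The authors' deposited table lists Agtpbp1 at −2.78 for aged over young, and Ttll10 at 3.29 and then −2.28 for spermidine over aged.

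The order of the enzymes differed between the groups, with Agtpbp1 near the top in young libraries alone. On a scale of CPM per kb of the longest coding transcript, Ttll11 (22.3 ± 1.74) and Agtpbp1 (20.4 ± 1.09) led in young libraries and their ranges overlapped. Ttll1 (4.47), Ttll4 (2.25) and Ttll5 (1.51) followed, each apart from its neighbours. Agbl5 (0.207), Ttll12 (0.186), Ttll10 (0.153), Ttll7 (0.0819) and Ttll3 came last, each overlapping the next. In aged libraries Ttll11 still led with 14.5 ± 2.55 CPM per kb, and Ttll1 (3.61) was next. Agtpbp1 (3.05 ± 0.297), Ttll5 (2.89) and Ttll4 (2.87) overlapped, and Ttll10 (1.56) stood above Agbl5 (0.614), Ttll12 (0.402) and Ttll7 (0.0670). In spermidine libraries the order was Ttll11 (15.8), Ttll1 (3.75), Agtpbp1 (2.67), Ttll4 (2.25), Ttll5 (1.44), Ttll10 (0.323), Agbl5 (0.280), Ttll12 (0.223) and Ttll7 (0.131). There Agtpbp1 and Ttll4 overlapped, as did Ttll10, Agbl5, Ttll12 and Ttll7 from each to the next.

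The TTLL genes summed per length to 35.7 ± 2.40 CPM per kb in young, 30.7 ± 2.40 in aged and 28.4 ± 2.73 in spermidine libraries. Ttll11 made up 62.6% ± 1.63, 46.9% ± 5.24 and 55.5% ± 2.72 of the sum. Ttll5 held 4.22% ± 0.136, 9.56% ± 3.74 and 5.09% ± 0.698, with 13.9% in aged 1 against 7.26% and 7.56% in the other aged libraries, and Ttll10 0.423%, 5.04% ± 0.753 and 1.14%. In aged oocytes these shares of Ttll5 and Ttll10 were larger than in the other groups, with Ttll11 still the largest. Ttll10 was chosen for its high level in aged libraries, so its share follows that choice. The TTLL sum and shares carry no test.

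Among 56 related genes of tubulin modification and turnover, 47 were tested. For aged minus young 3 were called (1 higher, 2 lower; 9 below 0.05 by unadjusted p) where 17.8% of all genes were called, with a median difference of 0.05 against 0.10 over all genes. The count was 0 without young 1 or young 3, 1 without aged 2 and 5 without spermidine 1. For spermidine minus aged 1 was called, lower (10 unadjusted), against 4.86% of all genes, with a median of −0.02 against −0.03. Without spermidine 4 it was 3. For spermidine minus young 1 was called, lower (5 unadjusted), against 5.36% of all genes, with a median of 0.07 against 0.04. DESeq2 called 6, 2 and 1. These lists were drawn up with earlier results of the same libraries known.

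Agbl2 was the related gene lowest with spermidine, a pattern unlike that of Agtpbp1. Its level was 8.25, 9.66 and 9.38 CPM in young, 9.14, 8.68 and 7.30 CPM in aged, and 3.37, 3.59, 3.44 and 3.22 CPM in spermidine libraries. Young and aged overlapped and all 4 spermidine libraries lay below both. Agbl2 fell with spermidine from 8.37 ± 0.957 to 3.41 ± 0.153 CPM (log2 −1.30, SE 0.16, adjusted p = 0.00211 against aged) and was also lower than in young (9.10 ± 0.748, log2 −1.42, SE 0.16, adjusted p = 0.000261). Aged minus young was −0.12 (SE 0.17, adjusted p = 0.626). Both calls were kept under all 18 alternatives that tested the gene. Agbl2 and Agtpbp1 both encode enzymes that shorten long chains, and in spermidine libraries both were low.

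Of the 5 tested genes of tyrosination and acetylation, 2 were called, both for aged minus young, where 17.8% of all genes were called. Hdac6, the tubulin deacetylase, was at 3.64, 3.52 and 4.31 CPM in young, 8.17, 6.33 and 5.94 in aged, and 5.68, 4.42, 4.01 and 5.64 in spermidine libraries. It rose in aged oocytes by 0.84 (SE 0.21, adjusted p = 0.0194), and the call was lost without aged 1 (0.64) or any 1 young library. Its spermidine minus aged was −0.46 (SE 0.19, adjusted p = 0.165). Svbp, the partner that vasohibins need to remove the terminal tyrosine, fell from 29.3 ± 3.97 to 21.0 ± 0.908 CPM, by 0.48 (SE 0.15, adjusted p = 0.0449), and was at 25.6 ± 2.27 CPM with spermidine. The Svbp call was lost under 12 of 19 alternatives. Stmn1, which encodes the tubulin-sequestering protein stathmin, was the 1 gene called of 7 for folding and sequestering. It fell from 82.7 ± 8.73 to 56.9 ± 5.90 CPM in aged oocytes, by 0.54 (SE 0.15, adjusted p = 0.0265), a call lost under 5 of 19 alternatives. With spermidine it was at 80.1 ± 8.32 CPM (0.49 above aged, SE 0.14, adjusted p = 0.0599).

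Of 17 tested genes for the tubulins themselves edgeR called 0 in each comparison, with 1, 2 and 2 below 0.05 by unadjusted p and DESeq2 calling 1, 0 and 0, in the order aged minus young, spermidine minus aged and spermidine minus young. Spread within groups was wide for some, with Tuba1a, an alpha-tubulin gene, at 4.66, 7.07, 28.7 and 70.9 CPM in the 4 spermidine libraries. Lists this short would hold few calls at the shares over all genes, 17.8%, 4.86% and 5.36%, so nothing is read from the zeros. The 5 partners of the Ttll1 complex and associated proteins gave 0 calls in each comparison (0, 2 and 2 unadjusted, 0 by DESeq2). The 7 severing genes, some of whose products cut microtubules according to their glutamate chains, also gave 0 calls (1, 0 and 0 unadjusted, 0 by DESeq2). Spast, which encodes spastin, was at 69.7 CPM in aged 1 against 26.8 and 31.4 CPM in the other aged libraries. It was next highest in spermidine 1, at 50.3 CPM. Ttll4 was likewise highest in aged 1 and next highest in spermidine 1.

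**Figure D4:**
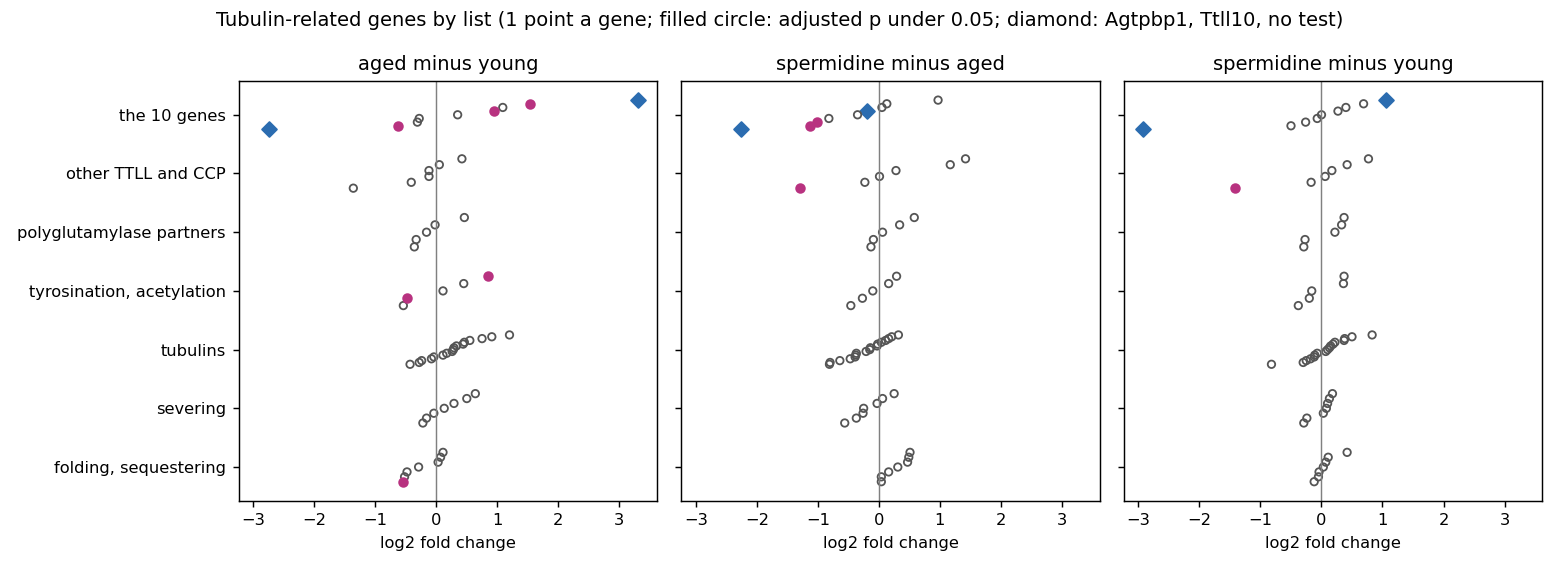
Log2 fold change of every tested gene of the member list and of the 6 related lists in the 3 comparisons, 1 point per gene, with Agtpbp1 and Ttll10 drawn as diamonds because they carry no test. Filled circles are genes called by edgeR, and the 47 tested related genes hold 3, 1 and 1 of them.

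Among the genes whose levels followed Agtpbp1 most closely over the 10 libraries were Sirpb1c, Sestd1, Pard6g and Ppa2. The measure was the Pearson correlation of log2(CPM + 1) among 6791 tested genes of at least 5 CPM on average. Members and predicted genes (symbols Gm with a number, starting LOC or ending Rik) were left out, so such a gene could lie closer. Sirpb1c (r = 0.981) averaged 31.3 CPM in young, 2.64 in aged and 2.13 in spermidine libraries. Sestd1 (r = 0.970) averaged 63.1, 33.8 and 35.8 CPM. These genes, with Pard6g (r = 0.959; 10.7, 4.81 and 4.79 CPM) and Ppa2 (r = 0.954; 22.9, 15.7 and 15.4 CPM), were high in young libraries and lower in both other groups. Closest to Ttll10 were Rilpl1 (r = 0.984), Tnpo2 (0.971), Ptbp1 (0.964), Fam90a1a (0.958) and Ap1b1 (0.958). Rilpl1 averaged 4.82 CPM in young, 20.8 in aged and 6.44 in spermidine libraries. Ptbp1, which encodes a regulator of splicing, averaged 14.3, 48.4 and 21.9 CPM. Tnpo2 (3.15, 8.10 and 4.27 CPM), Fam90a1a (32.9, 64.2 and 40.3 CPM) and Ap1b1 (10.2, 28.6 and 14.3 CPM) likewise were highest in aged libraries. The points share libraries and group means, and these are the extremes of a ranking, so the correlations are a description.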

How the data were processed

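Oocyte RNA of 3 young, 3 aged and 4 spermidine libraries was measured by sequencing. The deposited table holds expected counts per gene made by the authors, 15.9 to 16.7% of them not whole; the submitters' processing notes list the build mm9, RSEM 1.3.1, Bowtie2 2.3.4.3 and DESeq2 1.4.5, with no role or order, and strand use and replicate origin are not given in the sources used here. The authors' deposited log2 ratios and q-values (adjusted p-values) are quoted only where named. Members and lists were chosen with earlier results of these data known.

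Counts were rounded, filtered (filterByExpr), scaled by TMM and fitted once over the 10 libraries with edgeR 4.0.16 in R 4.3.3. The test was the quasi-likelihood F test, robust, with Benjamini-Hochberg over 12315 genes and a threshold of 0.05. The procedure was also run on simulated counts. These held no trend across a whole library, such as that of aged 1 with transcript length, so nothing is drawn from that run. The SE is the log2 fold change over the root of F. Totals were 24222185 to 28730790 counts per library, and a gene at 1 CPM then rests on few counts. Levels per kb use the longest coding transcript of GENCODE M21 (GRCm38), a build other than that of the counts. No 2 replicates agreed within sampling noise (median chi-square per pair 1.62 to 9.64). The 19 alternatives were other scaling, DESeq2 1.42.0, no filter or a minimum of 10 CPM in 3 libraries, 2-group fits, a replicate block, no robust fit, and libraries left out.

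Named genes are all members, of each related list the called genes (at most 4), and the 5 genes most like Agtpbp1 and most like Ttll10, of which 1 is not reported here. Tubulin genes and others named for their spread, and chromosomal neighbours, were chosen after their values were seen. Cstpp1, Matcap1 and Tubb1 were not analysed here. Marker lists covered oocyte, granulosa and cumulus, theca and stroma, blood, and ciliated cells.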

Additional observations from a re-analysis of the deposited data

Results flagged for a closer look

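In each group of 4 spermidine libraries the highest and the lowest value were set against the range, and a value was singled out when its gap to the nearest other library exceeded 0.829 of the group's range. About 1 in 20 groups does so by chance, and 14 groups were looked at. Agbl5 was lowest in spermidine 2, at 0.725 CPM against 1.07 to 1.11 CPM in the other 3 libraries (gap over range 0.899). Ttll7 was highest in the same library, at 1.63 CPM against 0.690 to 0.810 CPM (gap over range 0.873). Ttll3 was highest in spermidine 1, at 0.0602 CPM against 0 in the other 3, which is under the level of 3 counts.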

How the results depend on the processing

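Genes near 1 CPM (Agbl5, Ttll7, Ttll10, Ttll12) are limited by depth, and Ttll3 lies at its floor. Genes called for aged minus young numbered 2189, and 1179 with the filter of 10 CPM; leaving out 1 library gave 827 (without young 1) to 2362. Members called there, with Agtpbp1 and Ttll10 counted in here and below, were 5, 3 with that filter, 6 without aged 1 and spermidine 1 together (Ttll12 joining) and 2 (without young 1) to 5 with 1 library out. Related genes called there were 3, then 1 with that filter, 6 by DESeq2, 9 without aged 1 and spermidine 1 together, and 0 (without young 1 or young 3) to 5 with 1 library out. For spermidine minus aged 598 genes were called, 259 with scaling by total counts, 1366 by DESeq2, 124 with only these 2 groups and 99 (without aged 2) to 1127 (without spermidine 4) with 1 library out. Members called there were 3, then 1 each with total counts, the 10 CPM filter and 2 groups, and 1 (without spermidine 2 or 3) to 3 with 1 library out. Related genes called there were 1, 2 by DESeq2, 2 without aged 1 and spermidine 1 together, and 1 to 3 with 1 library out. For spermidine minus young 660 genes were called, 273 with the 10 CPM filter, 1099 by DESeq2 and 283 (without young 1) to 874 with 1 library out. Members called there were 1, 2 each with total counts and DESeq2, and 1 to 2 (without aged 1) with 1 library out. Related genes called there were 1, 3 with total counts and 0 with the 10 CPM filter. Agtpbp1 and Ttll10 were chosen on these comparisons, so the member counts that include them show nothing about the set. Without those genes edgeR called 3 members for aged minus young, 2 for spermidine minus aged and 0 for spermidine minus young. The filter of 10 CPM left fewer genes to test. The cause of the changed counts was not tested for any setting.

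Deviations of same-numbered libraries correlated between −0.404 and 0.552, the highest being aged 1 with spermidine 1. Those of differently numbered libraries in different groups correlated between −0.588 and 0.495. Whether the replicate numbers mark a pairing was not tested. With the replicate number as a block, 998 genes and 3 related genes were called for spermidine minus aged, and the Agbl5 call there was lost (adjusted p = 0.0616), as was that of Svbp for aged minus young.

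Scaling by total counts moved the median of all genes from 0.10 to 0.24 for aged minus young and from 0.04 to 0.23 for spermidine minus young. Of the 27 member results, 11 kept direction and side of the threshold in every alternative run. Among these 11, the only results under the threshold were those of Agtpbp1 and Ttll10, which were chosen by these same values. No call of Agbl5, Ttll5 or Ttll11 was kept in every alternative. Differences that changed sign were all uncalled. For aged minus young these were Ttll4 (−0.09 without aged 1 to 0.53 with 1 library out, −0.10 without aged 1 and spermidine 1) and Ttll7 (−0.90 to 0.09, the latter without young 1). For spermidine minus aged they were Ttll1 (−0.03 to 0.10), Ttll4 (−0.53 to 0.05) and Ttll11 (−0.01 to 0.23), all with 1 library out. For spermidine minus young they were Ttll4 (−0.05 with RLE factors and by DESeq2, −0.16 without both libraries, −0.19 to 0.08 with 1 out), Ttll5 (0.11 with total counts, −0.15 to 0.01 with 1 out) and Ttll12 (−0.16 to 0.51 with 1 out, −0.14 without both).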

Other observations

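Ttll4 has as its closest neighbours on the chromosome Stk36 and Cyp27a1, both picked out after their values were seen. Stk36, which encodes a kinase needed for the central pair of motile cilia, averaged 1.17 ± 0.0680 CPM in young, 9.45 ± 1.27 in aged and 1.79 ± 0.575 in spermidine libraries (SD, n = 3, 3 and 4). It rose in aged oocytes by 3.01 on the log2 scale (SE 0.27, adjusted p = 6.33e-05, quasi-likelihood test of edgeR, adjusted by Benjamini-Hochberg) and with spermidine fell by 2.39 (SE 0.23, adjusted p = 0.00130). Cyp27a1, the mitochondrial sterol 27-hydroxylase, averaged 0.247 ± 0.0354, 6.30 ± 0.731 and 8.19 ± 0.636 CPM. It rose in aged oocytes by 4.64 (SE 0.24, adjusted p = 7.92e-07) and with spermidine was still above young by 5.01 (SE 0.23, adjusted p = 1.88e-07), with 0.38 between spermidine and aged (adjusted p = 0.177). Ttll4 itself did not pass the test in any comparison. Stk36 is thus highest in aged libraries and low again with spermidine, as Ttll10 is, and Cyp27a1 is low in young libraries alone.

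Tubg2, a gamma-tubulin gene also named after its values were seen, averaged 47.4 CPM in young, 109 in aged and 84.5 in spermidine libraries. The young and aged groups did not overlap, and the difference of 1.20 (SE 0.40) did not pass the test (adjusted p = 0.0569).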
